A study of Mus musculus with 28 samples.

Results

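A set of 10 genes of the liver X receptor (LXR) pathway and of cholesterol efflux was followed through livers and macrophage cultures of mice. They are the receptors Nr1h2 (LXRβ) and Nr1h3 (LXRα), the sterol pumps Abca1, Abcg1, Abcg5 and Abcg8, the apolipoproteins Apoe and Apoc1, the ubiquitin ligase gene Mylip and the phospholipid-remodelling enzyme Lpcat3. All 10 were taken by symbol from 17752 genes of the liver count table, and by Ensembl identifier from 56748 and 21959 features of the culture tables. Their levels are given as CPM, the usual depth-normalised read count, scaled to the library total and a TMM factor (trimmed mean of M values).

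LXRs are nuclear receptors that bind oxysterols, which build up when a cell holds too much cholesterol. Together with a retinoid X receptor they sit on a direct repeat of AGGTCA-like half-sites and, when a ligand is bound, turn on genes that move sterol out of the cell. In macrophages the main outlet is ABCA1 and ABCG1, which load cholesterol onto apolipoprotein particles. In hepatocytes ABCG5 and ABCG8, which work only as a pair, secrete sterols into bile.

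Messenger RNA had been sequenced from 16 livers and 12 cultures. The liver donors were male mice, 8 weeks old per the labels when they were first fed a diet lacking methionine and choline for 4 weeks, so the controls too were on this diet, which is used to induce steatohepatitis. The 4 groups of 4 were labelled Lyz2-Cre (the controls), NFATc3-MKO (macrophage knockout of NFATc3, a calcineurin-activated transcription factor), ASK1-MKO (macrophage knockout of the stress kinase ASK1) and MDKO (both). The cultures were bone marrow-derived macrophages (BMDMs) grown for 7 days with 30% L929-conditioned medium. They were labelled NFATc3-MKI or ASK1-MKI (macrophage knock-in of either gene), with 3 cultures each, and each set had 3 Lyz2-Cre control cultures of its own. The labels name no treatment of the cultures. Lyz2-Cre acts in myeloid cells, while the RNA is from whole liver, so most RNA came from cells outside its reach. In such bulk samples fewer cells of a type and less RNA per cell cannot be told apart. No label ties cultures to separate mice, so the p-values of the cultures measure the spread between these samples, which may be technical.

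The DNA between Abcg5 and Abcg8, neighbours transcribed away from each other, is shown because the levels of this pair are compared at length here. No result was tied to its sequence. Both starts flank it, at 109 bases apart (RefSeq starts on mm10, chr17:84683012-84683120, plus strand, Abcg5 to the left and Abcg8 to the right). The promoter of Abca1 (chr4:53159896-53160015, minus strand, the 120 bases before its start) is shown as the textbook LXR target. Capitals mark its best match to the direct repeat.

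Abcg5-Abcg8 interval: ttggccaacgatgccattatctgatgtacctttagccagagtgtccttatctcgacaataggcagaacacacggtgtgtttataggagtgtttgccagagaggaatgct
Abca1: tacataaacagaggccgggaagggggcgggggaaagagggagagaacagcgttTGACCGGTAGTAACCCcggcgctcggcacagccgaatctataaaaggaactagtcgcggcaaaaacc

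The repeat searched was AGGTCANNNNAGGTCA, on both strands of the 250 bases before each RefSeq start. The match in Abca1 spans bases −67 to −52, lies on the opposite strand and has 3 mismatches. A match that good or better is present in 18.5% of 32851 promoters. The best match within the 109 bases of the interval has 4 mismatches. Over 250 bases 70.6% of promoters reach that count or better, a share that does not carry over directly to the shorter interval. RefSeq also lists a second Abcg8 start 6819 bases upstream, inside Abcg5, and counts per gene do not separate the transcripts of these starts. Promoters were found for 8 of the 10 genes.

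Sequencing depth was lowest in MDKO replicate 3 among the livers, with a total of 8912117 counts, and 20601168 to 30834547 in the remaining 15. NFATc3-MKI cultures and their controls reached 7693464 to 9398163 counts, and ASK1-MKI cultures with theirs 16051951 to 18728508. RNA of the targeted genes did not follow the labels, except that mean Nfatc3 was lower in NFATc3-MKO livers, without passing. Nfatc3 was at 28.3 ± 5.78 CPM (SD, n = 4) in NFATc3-MKO and 36.3 ± 3.94 in Lyz2-Cre livers (edgeR adjusted p = 0.12), and at 36.6 ± 4.60 in MDKO. Map3k5, which encodes ASK1, rose against its label: it was at 30.9 ± 2.21 CPM in Lyz2-Cre, 46.25 ± 6.12 in ASK1-MKO (edgeR adjusted p = 0.0262) and 30.55 ± 2.15 in MDKO. This call ended without Lyz2-Cre replicate 3 or 4 or ASK1-MKO replicate 2 (0.0645 to 0.0887). In the knock-in cultures RNA of the gene knocked in was lower than in the controls. Nfatc3 was at 80.9 ± 8.01 against 97.2 ± 7.33 CPM (SD, n = 3; −0.265, edgeR adjusted p = 0.0371), a call that ended without control replicate 2 or 3 or NFATc3-MKI replicate 1 or 3 (0.0902 to 0.166). Map3k5 was at 26.9 ± 0.349 against 30.1 ± 0.174 (−0.163, edgeR adjusted p = 0.0266), a call that ended without replicate 1 or 3 of either group (0.0552 to 0.0676). Whether the counting would catch a myeloid loss in whole liver, or an added copy, was not tested, and every direction here refers to libraries labelled with a genotype. On the first principal component of the livers (27.4% of the variance), NFATc3-MKO replicate 1 lay at −3.5 and its group mates at 36.5 to 54.8, and Lyz2-Cre replicate 2 lay at 16.3 and its group mates at −16.4 to −9.6. Results that rest on these 2 livers are also given without both. Hepatocyte and Kupffer cell markers were present in all liver groups, 10 of 10 each at a mean of 1 CPM or more. In the NFATc3-MKI set 8 of 10 pan-macrophage markers reached that level, but Mrc1 and Mertk did not exceed 0.133 CPM in any culture, and the summed level of the list was 1704 to 2618 CPM, against 34050 to 38140 in the ASK1-MKI set. These 2 sets of control cultures carry the same label but differ this widely, and were counted in separate tables, so levels are compared with tests only within a set.

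Per kilobase of exon, which allows genes to be compared, the order of levels in Lyz2-Cre livers ran from Apoe to Abcg1. Apoe stood at 6007 ± 653 CPM per kilobase and Apoc1 at 1840 ± 445. Abcg5 followed at 36.3 ± 5.30, then Nr1h3 at 27.2 ± 2.48, Lpcat3 at 25.3 ± 4.14, Abcg8 at 17.9 ± 4.81 and Abca1 at 17.2 ± 3.08. Neighbours in the run from Nr1h3 to Abca1 overlapped in their libraries. Nr1h2 (5.35 ± 0.810) and Mylip (4.08 ± 0.445) also overlapped each other, and Abcg1 was lowest at 1.41 ± 0.414. ASK1-MKI control cultures had another order. Apoe was again first, at 3595 ± 102, and Abca1 second, at 41.7 ± 0.600. Mylip came next at 28.9 ± 0.253, Abcg1 at 19.2 ± 0.721 and Nr1h2 at 18.5 ± 0.487 overlapped, and Nr1h3 stood at 16.7 ± 1.04 and Lpcat3 at 10.7 ± 0.591. In NFATc3-MKI controls Nr1h2 was first, at 17.1 ± 0.568, and Apoe stood at 5.24 ± 1.95. There Nr1h3 was at 0.328 ± 0.144 and Abca1 at 0.0666 ± 0.0343 CPM per kilobase, which is 4 to 9 and 3 to 9 reads per library.

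**Figure D1:**
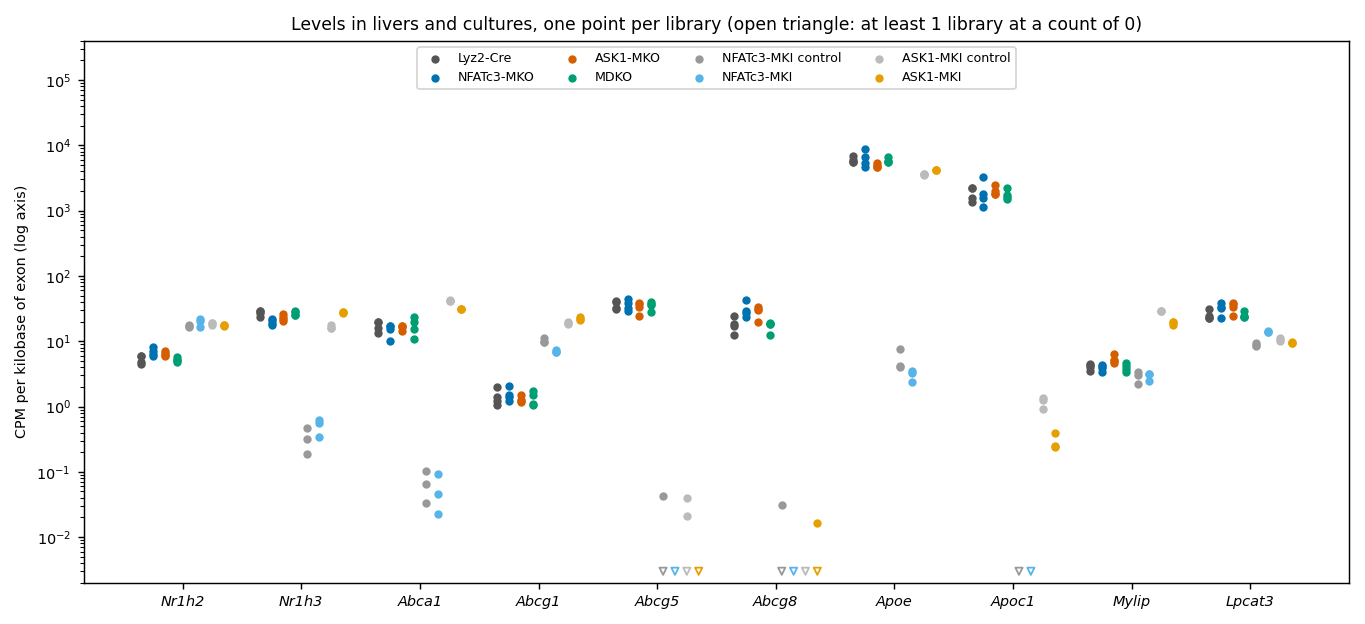
Levels of the 10 genes in CPM per kilobase of exon (log axis), one point per library, in the 4 liver groups and the 4 culture groups. Open triangles stand for groups with at least 1 library at a count of 0. Abcg5 and Abcg8 lie at 12.35 or more in every liver and at 0.0428 or less in every culture, and Apoe lies at 2.36 to 7.49 in the NFATc3-MKI set and at 3480 or more in all other libraries.

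In the livers labelled NFATc3-MKO, Nr1h3 fell and Abcg8 rose against Lyz2-Cre, and the other 8 genes did not pass the test. That is 2 of 10, where 8.45% of all 13309 genes tested passed at an edgeR adjusted p under 0.05. In the livers labelled ASK1-MKO none of the 10 passed (8.46% of all genes did). An unadjusted p under 0.05 was found for 5 of the 10 and for 3119 of all 13309 genes. DESeq2's Wald test called 1 of the 10 (12.3% of all genes) and limma's voom 4 (19.7%). In MDKO livers none of the 10 passed against Lyz2-Cre, nor did any gene (0% of 13309). There none of the 10 had an unadjusted p under 0.05, 35 of all genes did, and DESeq2 and voom also called 0. Chance alone would put about 1 in 20 genes under 0.05, so the p-values of this comparison ran too large. The absence of calls therefore does not show that the 2 groups are alike. Lyz2-Cre and MDKO livers of the same number deviated together (r = 0.24 to 0.53 over 4 pairs), which the p-values, intervals and permutations here do not take into account. Blocking on the number, over all livers or over these 2 groups alone, again called 0 genes. The median log2 change of the 10 genes was 0.09, 0.04 and −0.03 in these comparisons, beside 0.03, −0.03 and 0.00 over all genes. The 3 comparisons share their control livers. They also share the spread of the 4 groups, since all 16 livers entered one fit.

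**Figure D2:**
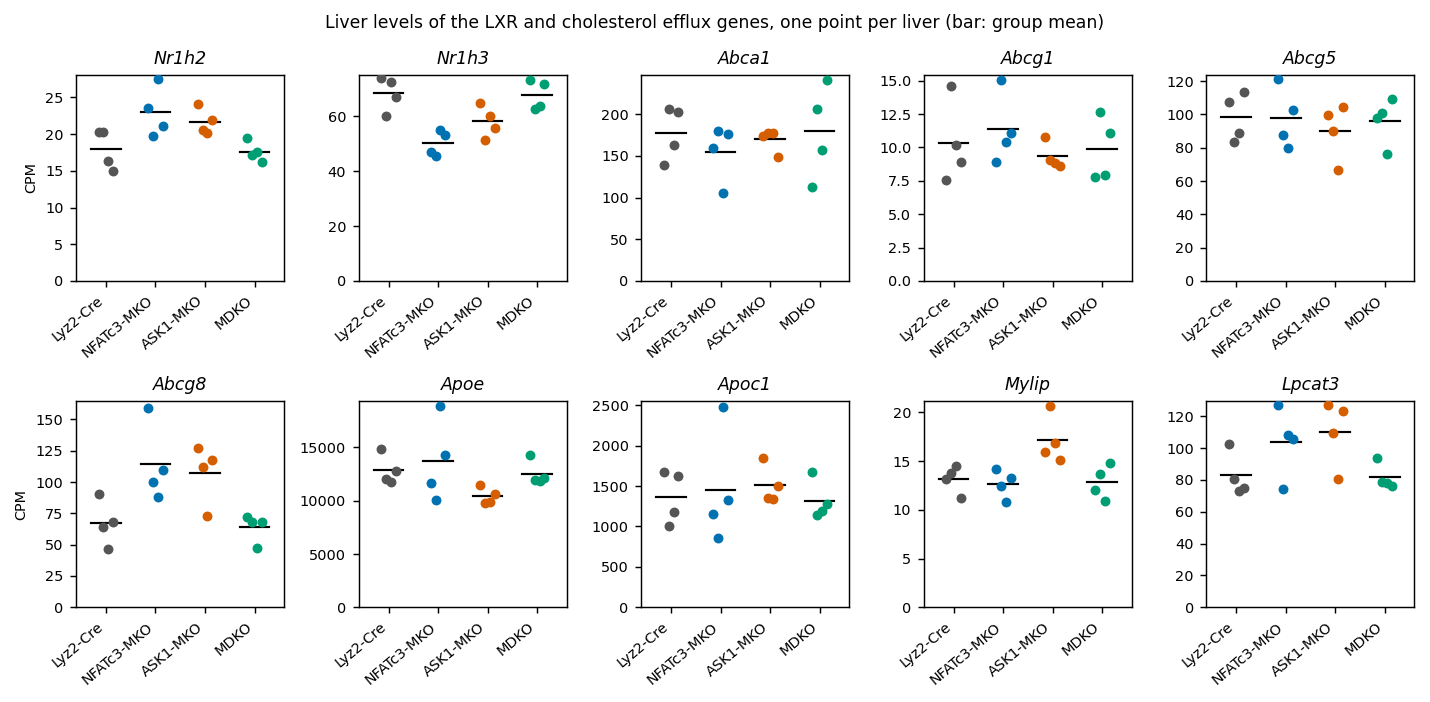
CPM of each of the 10 genes in the 16 livers, one point per liver, with group means as bars and axes that start at 0. Nr1h3 lies at 45.4 to 54.98 in NFATc3-MKO and 60.1 to 73.7 in Lyz2-Cre livers, without overlap, and Abcg8 lies at 73.1 or more in the single knockouts and at 72.1 or less in MDKO.

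Nr1h3 (ENSMUSG00000002108, chr2:91184061-91202834, minus strand) encodes LXRα, the form that is abundant in liver and macrophages. Its level was 73.7, 60.1, 72.5 and 66.9 CPM in Lyz2-Cre replicates 1 to 4, and 47.1, 45.4, 54.98 and 53.2 in NFATc3-MKO. Every NFATc3-MKO liver was below every control. The fall was −0.445 ± 0.108 (log2, SE; edgeR adjusted p = 0.0216; two-sided exact permutation p = 0.0286, the smallest that 4 against 4 allow). ASK1-MKO livers stood at 51.5 to 64.9 CPM, between the other groups and overlapping both (−0.235 ± 0.108, edgeR adjusted p = 0.199). MDKO livers were at 62.4 to 73.1 CPM, inside the range of the controls (−0.01, with an interval of 2 SE from −0.23 to 0.20). Against NFATc3-MKO, Nr1h3 was higher in MDKO, without overlap (0.43 ± 0.11, edgeR adjusted p = 0.0246). The call against Lyz2-Cre ended without Lyz2-Cre replicate 1, 3 or 4 (edgeR adjusted p = 0.0532 to 0.0786) and with only the 2 groups compared (0.0814). It held without both livers that stand apart. The call of MDKO against NFATc3-MKO ended without NFATc3-MKO replicate 2 or MDKO replicate 3 or 4 (0.0514 to 0.0827) and with only the 2 groups (0.0913). An annotated transcript on the same strand, Gm13783, shares 34 exon bases with Nr1h3.

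Cell type markers moved beside Nr1h3. In NFATc3-MKO, 2 of 10 Kupffer cell markers were lower (Clec4f and C6) and the list summed to 390.8 to 517.2 CPM, against 473.3 to 672.2 in Lyz2-Cre. Of 10 hepatocyte markers 2 were lower (Hnf4a and Ass1), at a sum of 79240 to 121600 against 107200 to 144700 CPM. Lipid-associated and monocyte-derived macrophage markers summed to 177.4 to 1014 against 146.8 to 339.3 CPM (1 of 10 higher), cholangiocyte markers to 96.0 to 404.1 against 63.8 to 130.7 (3 of 6 higher) and neutrophil markers to 7.60 to 41.7 against 3.09 to 11.7 (2 of the 4 tested higher). Sinusoidal endothelial markers summed to 160 to 227.6 against 221.8 to 272.4 CPM (2 of 8 lower), B and plasma cell markers to 6.89 to 14.2 against 2.76 to 5.14 without overlap (1 of the 4 tested higher), and stellate cell and fibroblast markers to 454 to 983 against 601.4 to 707.9 (1 of 8 higher). Spp1 is counted in both the lipid-associated and the cholangiocyte sums. No pan-macrophage, T and NK cell or erythroid marker passed. Their part in the result was not tested.

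Nr1h2 (ENSMUSG00000060601, chr7:44549616-44553951, minus strand) encodes LXRβ, which is found in most tissues. It lay at 15.0 to 20.3 CPM in Lyz2-Cre, 19.7 to 27.5 in NFATc3-MKO, 20.1 to 24.2 in ASK1-MKO and 16.2 to 19.5 in MDKO livers. Both single knockouts overlapped the controls only near 20 CPM, and neither passed (0.35 ± 0.13 and 0.27 ± 0.13, edgeR adjusted p = 0.0935 and 0.213). MDKO livers lay below both single knockouts without overlap, again without passing (edgeR adjusted p = 0.0754 and 0.172). With library totals NFATc3-MKO passed against Lyz2-Cre and against MDKO (edgeR adjusted p = 0.0318 and 0.0279). DESeq2 called the latter (Wald test adjusted p = 0.0443), and voom each of these differences (limma adjusted p = 0.0145 to 0.0379).

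Abcg8 (ENSMUSG00000024254, chr17:84676302-84700333, plus strand) and Abcg5 (ENSMUSG00000040505, chr17:84658234-84683011, minus strand) encode the partners that form the canalicular sterol pump. Abcg8 was at 90.2, 64.0, 46.3 and 68.0 CPM in Lyz2-Cre replicates 1 to 4. It was at 159.2, 100.3, 88.4 and 109.9 in NFATc3-MKO, at 127.3, 111.7, 73.1 and 117.4 in ASK1-MKO, and at 72.1, 67.7, 47.2 and 68.0 in MDKO. One liver kept each single knockout from clearing the controls: NFATc3-MKO replicate 3 and ASK1-MKO replicate 3 lay below Lyz2-Cre replicate 1. MDKO livers lay below every single-knockout liver. Against Lyz2-Cre the change was 0.77 ± 0.22 in NFATc3-MKO (edgeR adjusted p = 0.0402, exact permutation p = 0.0571) and 0.68 ± 0.22 in ASK1-MKO (0.0665, exact permutation p = 0.0571). The ASK1-MKO value passed in 6 of 17 alternatives, with library totals (0.0389), DESeq2 (0.0295), voom (0.004), the replicate number as a block (0.00136), and without Lyz2-Cre replicate 1 (0.0374) or ASK1-MKO replicate 3 (0.0306). In MDKO the change was −0.07, with an interval of 2 SE from −0.51 to 0.37. Beside these values, hepatocyte markers summed to 118000 to 136600 CPM in ASK1-MKO (1 of 10 higher) and 127600 to 136400 in MDKO (none past the threshold), and their part in the result was not tested.

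The NFATc3-MKO call of Abcg8 was fragile. It ended when Lyz2-Cre replicate 2, 3 or 4 was left out, or NFATc3-MKO replicate 1 or 4 (edgeR adjusted p = 0.0596 to 0.141), with no filter (0.0525), with only the 2 groups (0.0954) and without both livers that stand apart (0.56, 0.115). MDKO was lower than NFATc3-MKO (−0.84 ± 0.22, edgeR adjusted p = 0.0303) and than ASK1-MKO (−0.75 ± 0.22, 0.0472). The first of these ended without NFATc3-MKO replicate 1 or MDKO replicate 2, 3 or 4 (0.0513 to 0.106), with only the 2 groups (0.0593) and without both livers that stand apart (−0.64, 0.0667). The second ended without ASK1-MKO replicate 1, 2 or 4 or any one MDKO liver (0.0632 to 0.146), and with no filter (0.0567).

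Abcg5 did not pass in any liver comparison. Its level was 107.5, 83.5, 89.1 and 113.4 CPM in Lyz2-Cre, 121.2, 87.7, 80.0 and 102.6 in NFATc3-MKO, 99.9, 89.8, 66.8 and 104.6 in ASK1-MKO, and 97.7, 101.1, 76.2 and 109.3 in MDKO. All 4 groups overlapped. The change from Lyz2-Cre was −0.01 in NFATc3-MKO, with an interval of 2 SE from −0.34 to 0.32, and −0.12 in ASK1-MKO, from −0.45 to 0.21.

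The ratio of the Abcg8 count to the Abcg5 count within a liver does not depend on library scaling. It was chosen after these values were seen. It was 0.839, 0.766, 0.520 and 0.600 in Lyz2-Cre, 1.31, 1.14, 1.11 and 1.07 in NFATc3-MKO, 1.27, 1.24, 1.09 and 1.12 in ASK1-MKO, and 0.739, 0.670, 0.619 and 0.622 in MDKO. Every single-knockout liver was above 1 and every Lyz2-Cre and MDKO liver below it. The ratio was 1.73 times that of Lyz2-Cre in NFATc3-MKO and 1.77 times in ASK1-MKO (two-sided exact permutation p = 0.0286 each, the smallest possible, and 0.0429 after the Benjamini-Hochberg adjustment over 6 comparisons). In MDKO it was 0.988 times that of Lyz2-Cre (exact permutation p = 0.914), 0.572 times that of NFATc3-MKO and 0.559 times that of ASK1-MKO (0.0286 each, 0.0429 adjusted). NFATc3-MKO and ASK1-MKO did not differ past the threshold (0.977 times, exact permutation p = 0.8). With livers left out, 51 repeats of these tests kept their outcome and 2 no longer passed. The 51 include repeats of the 2 comparisons that had not passed, which count as kept when they again did not pass. The 2 that no longer passed compared NFATc3-MKO with Lyz2-Cre without NFATc3-MKO replicate 1, and 1 of them also lacked Lyz2-Cre replicate 2. That one set 3 livers against 3, where the exact p cannot fall under 0.1. In both, every NFATc3-MKO liver kept still lay above every Lyz2-Cre liver. The exons of the genes overlap by 82 bases on opposite strands. The libraries mark strand, per the labels, but the strand setting of the counting is not given in the sources used here, so reads in that overlap could have been given to either gene.

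**Figure D3:**
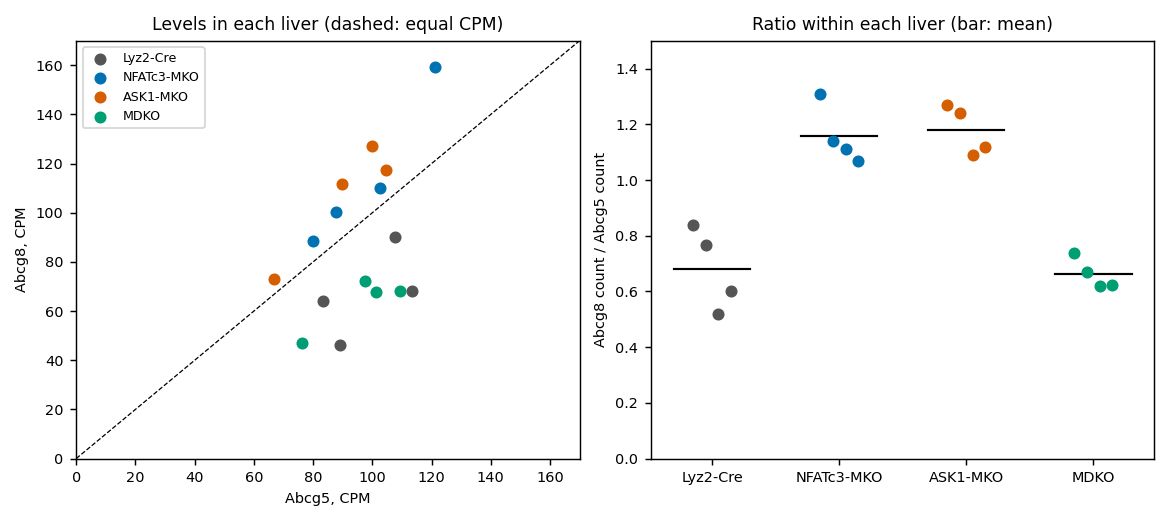
Left, Abcg8 against Abcg5 in CPM in each of the 16 livers, with equal CPM as a dashed line; right, the ratio of their counts in each liver, with group means as bars. All 8 livers labelled NFATc3-MKO or ASK1-MKO have a ratio of 1.07 to 1.31, and all 8 labelled Lyz2-Cre or MDKO one of 0.520 to 0.839.

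Abca1 (ENSMUSG00000015243, chr4:53030787-53159895, minus strand), the pump that lipidates apolipoprotein A-I, spanned 139.4 to 206.1 CPM in Lyz2-Cre, 105.2 to 179.7 in NFATc3-MKO, 148.6 to 177.9 in ASK1-MKO and 112.5 to 240.6 in MDKO livers. Abcg1 (ENSMUSG00000024030, chr17:31057675-31117988, plus strand), which passes sterol to HDL, spanned 7.60 to 14.6, 8.88 to 15.1, 8.65 to 10.8 and 7.77 to 12.6 CPM. The groups overlapped throughout for both genes, and neither passed in any liver comparison (edgeR adjusted p of 0.556 or more for Abca1 and 0.369 or more for Abcg1).

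Apoe (ENSMUSG00000002985, chr7:19696109-19699188, minus strand) carries lipid on remnant particles and takes up effluxed sterol. It was at 14820, 12000, 11740 and 12810 CPM in Lyz2-Cre, 11650, 10060, 18920 and 14320 in NFATc3-MKO, 11460, 9791, 9891 and 10630 in ASK1-MKO, and 14280, 11900, 11820 and 12160 in MDKO. ASK1-MKO livers lay below both Lyz2-Cre and MDKO livers without overlap, and NFATc3-MKO replicate 3 was the highest of all. The difference in ASK1-MKO did not pass (−0.30 ± 0.16, edgeR adjusted p = 0.293, exact permutation p = 0.0286). Between the single knockouts Apoe was higher in NFATc3-MKO by 0.396 ± 0.165 (edgeR adjusted p = 0.118), which passed in 3 of 17 alternatives. Apoc1 (ENSMUSG00000040564, chr7:19689481-19692660, minus strand), an apolipoprotein that inhibits lipases, lies next to Apoe and is transcribed in the same direction. It spanned 1004 to 1671 CPM in Lyz2-Cre, 851.5 to 2474 in NFATc3-MKO, 1338 to 1852 in ASK1-MKO and 1138 to 1672 in MDKO, overlapping throughout, and did not pass in any liver comparison.

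Mylip (ENSMUSG00000038175, chr13:45389742-45412022, plus strand) encodes the ubiquitin ligase IDOL, which marks lipoprotein receptors for degradation. It was at 13.2, 13.8, 14.5 and 11.2 CPM in Lyz2-Cre and 15.9, 20.7, 16.9 and 15.2 in ASK1-MKO, without overlap, and at 10.8 to 14.2 in NFATc3-MKO and 10.9 to 14.8 in MDKO. The difference of ASK1-MKO from Lyz2-Cre did not pass (0.38 ± 0.13, edgeR adjusted p = 0.0908, exact permutation p = 0.0286), except with voom (limma adjusted p = 0.0395). Mylip was lower in NFATc3-MKO than in ASK1-MKO (−0.435 ± 0.134, edgeR adjusted p = 0.0424), the only one of the 10 genes to pass between the single knockouts, where 12.8% of all genes did. That call ended with library totals as the only scaling (0.15), with voom (limma adjusted p = 0.0538), with no filter (0.0505), with only the 2 groups (0.112), and without NFATc3-MKO replicate 2, 3 or 4 or ASK1-MKO replicate 1, 2 or 3 (0.0597 to 0.148).

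Lpcat3 (ENSMUSG00000004270, chr6:124663027-124704418, plus strand) puts polyunsaturated chains into membrane phospholipids. It was at 102.5, 80.8, 73.1 and 74.8 CPM in Lyz2-Cre, 127.0, 74.3, 108.3 and 105.9 in NFATc3-MKO, 126.8, 109.2, 80.5 and 123.5 in ASK1-MKO, and 94.0, 78.9, 78.0 and 76.0 in MDKO. In each single knockout 3 of 4 livers were above all controls and 1 was among them, and no pairwise comparison passed (edgeR adjusted p = 0.225 and 0.149 for NFATc3-MKO and ASK1-MKO against Lyz2-Cre). Voom called both of these, and MDKO against each single knockout (limma adjusted p = 0.0058 to 0.048). Its exons share 334 bases with Emg1 on the opposite strand.

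**Figure D4:**
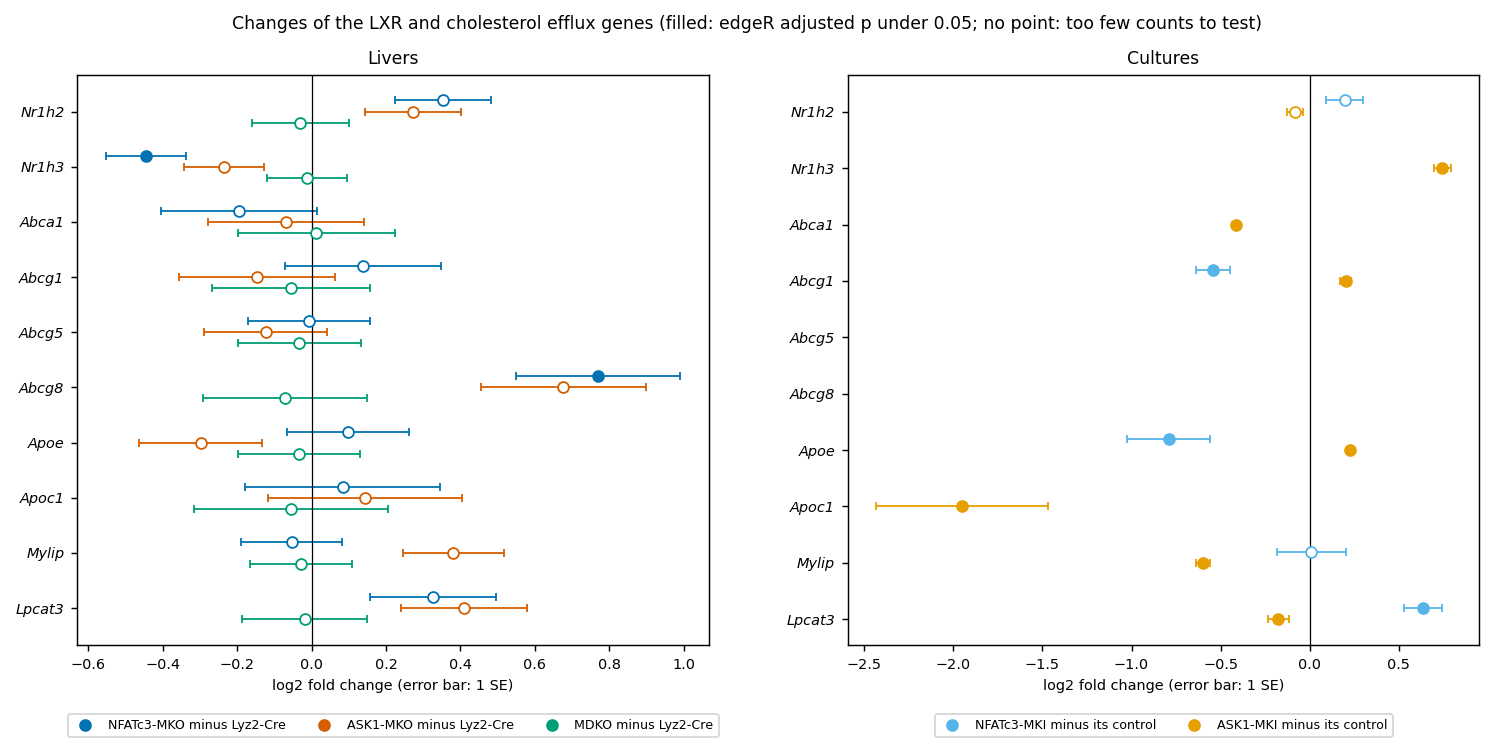
Log2 fold change of each gene with 1 SE, in the livers against Lyz2-Cre (left) and in the knock-in cultures against their controls (right; the horizontal scales differ). Filled points passed the edgeR test at an adjusted p under 0.05, and genes with no point had too few counts to test. The MDKO points lie between −0.07 and 0.01, and the 2 filled liver points are Nr1h3 at −0.445 and Abcg8 at 0.77 in NFATc3-MKO.

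An interaction was tested as the MDKO minus NFATc3-MKO difference less the ASK1-MKO minus Lyz2-Cre difference. It compares libraries as labelled, in which Map3k5 RNA was higher in ASK1-MKO and both targets stood at control level in MDKO. It adds MDKO and Lyz2-Cre, whose same-numbered livers deviated together, so its p-values may be too small. Of the 10 genes 4 passed this interaction test, where 16.2% of all genes did. Abcg8 gave −1.52 ± 0.31 (edgeR adjusted p = 0.0037) and Nr1h3 0.67 ± 0.15 (0.00769), and both passed in each of 24 alternative fits. Nr1h2 gave −0.66 ± 0.18 (0.0218), a call that ended without Lyz2-Cre replicate 3 or 4, ASK1-MKO replicate 1 or MDKO replicate 4 (0.0504 to 0.0536). Lpcat3 gave −0.755 ± 0.239 (0.0401) and passed in 10 of the 24. It ended with no filter (0.0518), without both livers that stand apart (0.0821), and when any liver but Lyz2-Cre replicate 1, NFATc3-MKO replicate 2, ASK1-MKO replicate 3 or MDKO replicate 1 was left out alone (0.0515 to 0.0886). In all 4 genes the 2 single knockouts lay on the same side of Lyz2-Cre and MDKO lay near it. MDKO against NFATc3-MKO called 2 of the 10 (7.35% of all genes) and MDKO against ASK1-MKO 1 (7.72%), all described above. Scaling by library totals alone moved the median of all genes by 0.13 in NFATc3-MKO minus Lyz2-Cre, by −0.12 in MDKO minus NFATc3-MKO and by −0.17 in the interaction. Under that scaling the share of called genes that were higher was 78.4% in place of 44.7%, 24.4% in place of 55.2% and 28% in place of 50.5%, and 73.6% in place of 56% between the single knockouts. Nr1h3 and Abcg8 kept their directions and calls under it in these comparisons.

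The 3 pairs of genes of one locus or target group that were tested varied together within groups. How far other pairs of genes do so was not tested. With group means removed, log2 CPM of Abcg5 and Abcg8 correlated across the 16 livers (Pearson r = 0.855, permutation p = 0.0013, adjusted over 3 pairs 0.002; Spearman rho = 0.809, permutation p = 0.0015, adjusted 0.0023; r = 0.771 without the 2 livers farthest from the median of Abcg5). Apoe and Apoc1 gave r = 0.944 (permutation p = 6e-05, adjusted 0.00018; rho = 0.935, permutation p = 0.00014, adjusted 0.00042; r = 0.85 without 2 livers). Abca1 and Abcg1 gave r = 0.627 (permutation p = 0.038, adjusted 0.038; rho = 0.697, permutation p = 0.019, adjusted 0.019; r = 0.647 without 2 livers). Abcg5 and Abcg8 rose and fell together from liver to liver inside a group, while their ratio separated the groups. Over all genes, with group differences kept in, the 3 genes most like Nr1h3 over the 16 livers were Zfp768, Mif4gd and Acnat2 (r = 0.92 each). Those most like Abcg8 were Rfx4, Sft2d1 and C130074G19Rik (r = 0.93, 0.93 and 0.92), and those most like Abcg5 were Cmtm6, Mfsd1 and Cpox (0.86, 0.85 and 0.85). Abcg1 was most like the leukocyte genes Fgr, Cd37 and Hcls1 (0.94 each), Abca1 like Nrp1, Gsap and Med13 (0.93, 0.93 and 0.9) and Nr1h2 like Rab11b, Tbc1d17 and Otud5 (0.94, 0.93 and 0.92). Apoe was most like Ndufs8, Bsg and Mpst (0.97, 0.97 and 0.96) and Apoc1 like Hsd17b8, Prdx4 and Apol9b (0.94, 0.94 and 0.92). Mylip was most like Sash1, Stim1 and Trim56 (0.88 each) and Lpcat3 like Tmem183a, Upp2 and Rab17 (0.92, 0.91 and 0.91). These likenesses are a description, and the livers share the group differences.

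The wider pathway was read from 4 lists. The lists were not tested as groups, and their counts stand beside the share of all genes called. In NFATc3-MKO livers, where 8.45% of all genes passed, 0 of 9 LXR partners and cofactors did. An unadjusted p under 0.05 was found for 3 of the 9 and for 3546 of all 13309 genes. Of 16 further LXR targets 1 rose and 2 fell, and of 6 enzymes of oxysterol and sterol ligand metabolism 1 rose and 1 fell. Scd1, which makes oleate, was at 101.8 ± 48.3 against 348.8 ± 90.1 CPM (−1.78 ± 0.36, edgeR adjusted p = 0.00818). Hsd3b7, an enzyme of bile acid synthesis, was at 182.5 ± 12.3 against 97.2 ± 11.1 (0.91 ± 0.15, 0.00321). Both passed in each of 17 alternatives. Mlxipl (the glucose sensor ChREBP) rose by 0.53 ± 0.15, and Cyp7a1, the enzyme that sets the pace of bile acid formation, and Cyp39a1, an oxysterol hydroxylase, stood at −1.27 ± 0.33 and −0.73 ± 0.19 (edgeR adjusted p = 0.0291 to 0.035 for the 3). Each of these 3 calls ended without Lyz2-Cre replicate 1, 3 or 4, without NFATc3-MKO replicate 2 or 3, and with only the 2 groups, and that of Mlxipl also without NFATc3-MKO replicate 1 or the filter (0.0503 to 0.106).

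In ASK1-MKO livers, beside 8.46% of all genes, 2 of 9 partners and cofactors rose, Ncoa2 (0.70 ± 0.17, edgeR adjusted p = 0.0176) and Rxrb, a heterodimer partner of the LXRs (0.46 ± 0.12, 0.0289). Both calls ended without Lyz2-Cre replicate 3 or 4, that of Ncoa2 also without Lyz2-Cre replicate 1 or ASK1-MKO replicate 2, and that of Rxrb also without Lyz2-Cre replicate 2 or ASK1-MKO replicate 1 or 3, or without both livers that stand apart (0.0537 to 0.0879). Of 16 further targets 2 rose and 3 fell. Scd1 was at 1117 ± 386 CPM, above the controls (1.68 ± 0.35, edgeR adjusted p = 0.00806), where NFATc3-MKO lay below them. Mlxipl rose by 0.95 ± 0.15 (0.000998), and Cyp7a1, at 99.3 ± 44.1 against 323.6 ± 63.1 CPM, and Apoc2, the activator of lipoprotein lipase, fell by 1.705 and 0.73 (0.00499 and 0.0155). Among genes of sterol uptake and storage Npc1, which exports lysosomal cholesterol, rose (0.61 ± 0.12, 0.00419). None of 6 ligand enzymes passed (2 had an unadjusted p under 0.05, as had 3119 of all 13309 genes). In MDKO none of the 51 genes tested in the 4 lists passed or had an unadjusted p under 0.05, and Scd1 and Cyp7a1 stood at 322.6 ± 105 and 340.2 ± 74.5 CPM, near the 348.8 and 323.6 CPM of Lyz2-Cre. In the interaction Cyp7a1 gave 3.045 ± 0.469 (edgeR adjusted p = 0.000545), Mlxipl −1.51 ± 0.21 (0.000246), Hsd3b7 −1.38 ± 0.21 (0.000414) and Npc1 −0.87 ± 0.17 (0.00214), each past the threshold in 24 of 24 alternatives.

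In cultures labelled NFATc3-MKI the pumps and apolipoproteins were first checked for presence. Apoc1 had no read in any culture, which with 3 counts over a group as the limit allows up to 0.122 CPM in the controls and 0.113 in NFATc3-MKI (counting error only). Abcg5 and Abcg8 had 0 or 1 read per culture, Abca1 2 to 9 and Nr1h3 4 to 13. These 5 genes were not tested. Of the 5 tested, Lpcat3 rose and Abcg1 and Apoe fell (3 of 5), beside 33.3% of all genes. Their median log2 change was 0.01, and that over all genes 0.00.

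Abcg1 was at 71.2, 81.6 and 70.8 CPM in the controls and 50.8, 49.9 and 52.9 in NFATc3-MKI, without overlap (−0.54 ± 0.10, edgeR adjusted p = 0.000128). Lpcat3 was at 27.9, 28.8 and 30.7 in the controls and 46.3, 44.6 and 45.1 in NFATc3-MKI, again without overlap (0.64 ± 0.11, 6.12e-05). For 3 against 3 the exact permutation p was 0.1 for both, the smallest possible. Apoe, at 9.03, 16.0 and 8.57 against 6.90, 5.05 and 7.61 CPM, did not overlap either (−0.79 ± 0.23, edgeR adjusted p = 0.0118). Its call rests on single cultures and ended without control replicate 2 (−0.44, 0.165) or NFATc3-MKI replicate 2 (−0.63, 0.0567). Nr1h2, at 55.1 to 58.6 against 56 to 74.1 CPM, and Mylip, at 7.17 to 11.0 against 7.97 to 10.2, overlapped and did not pass (edgeR adjusted p = 0.151 and 0.976). Nr1h2 did pass with voom (limma adjusted p = 0.0205) and without NFATc3-MKI replicate 2 (edgeR adjusted p = 0.0101). Beside these results, 6 of the 8 tested pan-macrophage markers were higher in NFATc3-MKI, the list summing to 2388 to 2618 against 1704 to 1827 CPM. Lipid-associated and monocyte-derived macrophage markers summed to 18400 to 22990 against 5159 to 5800 CPM (5 of 8 higher). Most of that rise was in Spp1, which is also on the cholangiocyte list. The cholangiocyte list summed to 16920 to 21470 CPM in NFATc3-MKI, where its other 5 markers had no read, and to 3992 to 4545 in the controls. The part of all these markers in the result was not tested.

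In cultures labelled ASK1-MKI 7 of the 8 tested genes passed, 3 higher and 4 lower, beside 49.1% of all genes. The 7 include Apoc1, which passed the count filter only through its control cultures. The median log2 change of the 8 was −0.13, and that over all genes 0.00. The spread between these cultures was small, with a common biological coefficient of variation of 0.0214 against 0.208 in the livers, and every gene that passed had groups without overlap (exact permutation p = 0.1, the smallest possible).

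Nr1h3 rose, from 40.5, 40.3 and 45.0 CPM in the controls to 71.4, 71.4 and 68.1 in ASK1-MKI (0.74 ± 0.05, edgeR adjusted p = 9.93e-30). Nr1h2 lay at 60.1 to 63.2 and 57.2 to 59.9 CPM, apart but not past the threshold (−0.085 ± 0.045, edgeR adjusted p = 0.111), except with library totals (0.036). The pumps moved in opposite directions. Abca1 fell from 426.5, 438.5 and 429.8 to 319.3, 325.9 and 326.4 CPM (−0.41 ± 0.02, 2.12e-34), and Abcg1 rose from 146.2, 139.3 and 135.8 to 168.9, 162.3 and 153.5 (0.20 ± 0.03, 2.52e-08). The apolipoproteins also differed in direction, though Apoc1 had few reads. Apoe rose from 7439, 7848 and 7773 to 9041, 9019 and 8971 CPM (0.23 ± 0.02, 2.54e-24). Apoc1 had 12, 16 and 19 reads in the controls and 3, 5 and 3 in ASK1-MKI (−1.95 ± 0.48, 0.000326), a level of 0.868 ± 0.173 and 0.219 ± 0.0613 CPM. Only its control reads carried Apoc1 past the count filter, so this test adds no independent support for the fall. With a filter of a mean of at least 1 CPM Apoc1 was not tested. Mylip fell from 92.5, 93.1 and 94.2 to 57.1, 63.3 and 64.1 CPM (−0.60 ± 0.04, 3.35e-27). Lpcat3 fell from 36.7, 35.4 and 32.9 to 30.9, 31.5 and 30.4 (−0.175 ± 0.060, 0.0107), a call that ended without control replicate 1 (−0.14, 0.084). Abcg5 and Abcg8 had 0 to 2 reads per culture and were not tested. Beside these results, Kupffer cell markers summed to 643.3 to 651.6 CPM in ASK1-MKI and 1185 to 1206 in the controls (5 of 7 lower, 1 higher) and neutrophil markers to 28.2 to 29.2 against 90.0 to 94.4 (3 of 3 lower). Pan-macrophage markers summed to 36140 to 38140 against 34050 to 36380 CPM (6 higher and 3 lower of 10). Their part in the result was not tested.

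Around these genes, and beside 33.3% of all genes called, NFATc3-MKI cultures had 3 of 7 tested partners and cofactors lower, led by the corepressor gene Ncor1 (−0.38 ± 0.09, edgeR adjusted p = 0.00175). The calls of Ncoa3 (−0.26, 0.0205) and Ncoa2 (−0.34, 0.0482) ended without control replicate 2 or 3 or NFATc3-MKI replicate 3, and the call of Ncoa2 also without NFATc3-MKI replicate 2, with DESeq2, with voom and with the replicate number as a block (0.0582 to 0.3). Of 9 further LXR targets 5 fell and 1 rose. The fatty acid synthesis genes Scd1 (104.9 ± 2.17 to 51.8 ± 1.59 CPM, −1.02 ± 0.09, 6.96e-09), Scd2 (−0.915 ± 0.085, 1.56e-08) and Fasn (−0.61 ± 0.10, 2.77e-05) fell, and Arl4c, a small GTPase, rose from 1.18 ± 0.125 to 3.38 ± 0.400 CPM (1.51 ± 0.34, 0.00135). Of 14 uptake and storage genes 3 rose and 5 fell: the scavenger receptor genes Msr1 (2.08 ± 0.11, 5.78e-12) and Cd36 (2.515 ± 0.277, 2.17e-07, from 1.61 ± 0.611 to 9.12 ± 1.37 CPM) and the cholesterol esterifier Soat2 (1.51 ± 0.14, 1.14e-08) rose, and the receptor gene Lrp1 fell (−0.66 ± 0.08, 1.34e-06).

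In ASK1-MKI cultures, beside 49.1% of all genes called, 3 of 7 partners and cofactors rose and 2 fell, all by less than 0.2 on the log2 scale, among them Rxra, the main heterodimer partner (149.2 ± 2.03 to 167.4 ± 1.64 CPM, 0.17 ± 0.03, edgeR adjusted p = 8.41e-07). Of 11 further targets 6 rose and 4 fell. Lpl, lipoprotein lipase, rose from 2428 ± 37.8 to 3853 ± 32.3 CPM (0.67 ± 0.02, 9.13e-68) and Mertk, an efferocytosis receptor, by 0.50 ± 0.03 (2.15e-37). Pltp, the phospholipid transfer protein, fell from 144.9 ± 2.32 to 74.8 ± 2.88 CPM (−0.95 ± 0.04, 5.74e-52), and Arl4c stood at −0.835 ± 0.039 (1.28e-41). Of 15 uptake and storage genes 6 rose and 5 fell. Msr1 rose (0.44 ± 0.02, 3.73e-45) and so did Lipa, lysosomal acid lipase (0.31 ± 0.02, 7.71e-33), while Abcb4, a phospholipid pump, fell from 16.2 ± 1.73 to 5.69 ± 0.510 CPM (−1.52 ± 0.11, 4.51e-26) and Cd36 stood at −0.20 ± 0.02 (3.98e-18). Of 3 ligand enzymes Cyp39a1 fell, at 2.07 ± 0.390 against 0.679 ± 0.234 CPM (−1.60 ± 0.30, 2.62e-06).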

How the data were processed

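Counts per gene were used as the authors deposited them, whole counts in 2 tables of cultures and estimated counts in 1 table of livers. Per the labels' protocols, total RNA was poly-A selected and made into strand-marking libraries. HISAT2 and mm10 are named in the submitters' processing notes. The sources used here give no counting program, strand setting or version. In the livers 85.42% of the deposited values were whole, and all were rounded to whole numbers for the count test.

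Culture identifiers were named from GENCODE M21 on mm10 (52073 of 56748 and 21851 of 21959). Low genes were removed with filterByExpr, which left 13309, 13363 and 11380. TMM factors, edgeR 4.0.16's robust quasi-likelihood test (R 4.3.3) and Benjamini-Hochberg adjustment over all genes kept followed, with all 16 livers in one fit and each culture table alone. The standard error is the absolute log2 change over the square root of F. Alternatives were library totals, DESeq2 1.42.0, limma 3.58.1's voom, no filter, only the groups compared, the replicate block and leaving out libraries. Fits were tested on simulated data. Promoters came from RefSeq (GRCm38.p6).

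Same-numbered Lyz2-Cre and MDKO livers deviated together (r = 0.24 to 0.53), a pairing taken from the numbers in the labels. Other groups did not meet that rule. Genes named in the text were the 10 members, and list genes called, up to 4 a list by adjusted p. Members and lists were chosen with earlier results of these data known. Leaving out both livers that stand apart was chosen after seeing the data. A few genes of the wider lists are not reported here.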

Additional observations from a re-analysis of the deposited data

Results flagged for a closer look

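In 3 of 40 combinations of gene and liver group, 1 liver stood apart from the other 3 by Dixon's test at the 95% level. Chance alone gives about 1 in 20. Abca1 was at 148.6 CPM in ASK1-MKO replicate 4, below the 173.9 to 177.9 CPM of its group. Apoe was at 14280 CPM in MDKO replicate 1, above the 11820 to 12160 CPM of its group, and Lpcat3 was at 94.0 CPM in the same liver, above 76.0 to 78.9. By edgeR neither Apoe nor Lpcat3 was called in a pairwise comparison of MDKO with another group. Voom called Lpcat3 in MDKO against NFATc3-MKO and against ASK1-MKO (limma adjusted p = 0.048 and 0.00596). The interaction test, which includes MDKO, also called Lpcat3.

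For 4 genes the MDKO minus NFATc3-MKO difference was unlike the ASK1-MKO minus Lyz2-Cre difference, by the interaction test on the 16 livers as labelled (edgeR's quasi-likelihood test). The log2 differences were −0.657 for Nr1h2, 0.667 for Nr1h3, −1.518 for Abcg8 and −0.755 for Lpcat3.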

How the results depend on the processing

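No call of the 10 genes reversed. A change of sign in an untested or uncalled gene was not counted as one. The number of the 10 genes called in each comparison moved with the setting, and the causes were not tested.

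Shares of all genes called under a setting are given in brackets. ASK1-MKO minus Lyz2-Cre, at 0, became 1 with library totals (7.09%), DESeq2 (12.3%) or the replicate number as a block (10.9%). It became 4 with voom (19.7%), and 0 to 1 with 1 library left out. NFATc3-MKO minus Lyz2-Cre, at 2, became 4 with voom (19.6%), 1 with no filter (4.99%) and 0 with only the 2 groups (1.68%). It became 1 without both livers that stand apart (15.8%), and 0 to 2 with 1 library left out. Library totals (8.71%) added Nr1h2 (edgeR adjusted p = 0.0318). MDKO minus NFATc3-MKO, at 2, became 4 with voom (19.8%), 0 with only the 2 groups (2.18%), 1 without both livers (11.4%), and 0 to 2 with 1 left out. Library totals (7.93%, edgeR adjusted p = 0.0279) and DESeq2 (12.2%, Wald test adjusted p = 0.0443) each added Nr1h2. MDKO minus ASK1-MKO, at 1, became 2 with DESeq2 (11.2%), 3 with voom (19.2%), 0 with no filter (4.75%), and 0 to 1 with 1 left out. NFATc3-MKO minus ASK1-MKO, at 1, became 0 with no filter (8.35%) or only the 2 groups (5.14%), and 0 to 1 with 1 left out. Apoe was called in place of Mylip with library totals (12.1%, edgeR adjusted p = 0.0254) and with voom (23.3%, limma adjusted p = 0.0416). The interaction, at 4, gave 2 to 4.

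Apart from ASK1-MKO minus Lyz2-Cre, the replicate block changed no member count. With 3 against 3, without both livers that stand apart, the smallest exact p for the Abcg8 to Abcg5 ratio is 0.1. With group means kept in, r was 0.436 for Abcg5 with Abcg8, 0.646 for Apoe with Apoc1 and 0.496 for Abca1 with Abcg1. By library totals, Apoe in ASK1-MKI was at 8934 CPM.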
